A study of Mus musculus with 34 samples.

Results

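GNF-5837 is a small molecule that blocks the kinase activity of neurotrophin receptors of the TRK family, and it was 1 of 27 treatments whose effect on splicing and gene expression was profiled by polyA+ RNA-seq in N2A cells, a mouse neuroblastoma line. The comparison described here set the 1 library from cells given GNF-5837 at 0.5 µM for 24 h against the 3 libraries from cells given DMSO alone for 24 h, labelled A, B and C, out of 34 libraries in the series. Cells of both groups were N2A cells in 0.4% DMSO. The compound had been selected as an activator of microexon splicing in a reporter screen and RT-PCR assays on other samples, so the question for RNA-seq was how widely exons and genes changed. With 1 treated library there was no replicate of the treatment, and although the study describes its DMSO controls as biological replicates, no source says which of the libraries came from separate cultures, so the p-values given below measure only the spread between these libraries.

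TRK receptors are tyrosine kinases that bind neurotrophins such as BDNF and NT-3. Through adaptors including SHC, FRS2 and GRB2 they activate RAS and the ERK cascade, and through GAB proteins the PI3K and AKT pathway, and ERK activity sustains transcription of feedback genes such as the Sprouty, DUSP and ETV families. Microexons are very short exons, most of them in genes of vesicle transport, cytoskeleton and synapse, which neurons include through the splicing factors Srrm4 and Srrm3. Genes encoding these factors were measured in the same libraries.

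Total reads over exon events were 75977986 in DMSO A, 66601683 in DMSO B, 37426769 in DMSO C and 37250433 in the GNF-5837 library, and all libraries of the series ranged from 33489679 to 75977986. Of 9 neuroblast markers, 8 were above 5 RPKM in DMSO and 7 in the GNF-5837 library, with Mycn, which fell, below 5 RPKM only after treatment. None of 8 fibroblast, 7 glial and 6 blood or endothelial markers was above 5 RPKM in either, and their summed levels were 0.94, 3.56 and 1.46 RPKM in DMSO and 2.15, 4.20 and 1.47 RPKM with GNF-5837. The DMSO libraries differed from each other by more than sampling noise, with a mean chi-square of 3.53 to 3.56 per exon over 2762 exons.

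The microexons whose inclusion changed most are, with the exception of Gnas, short coding segments, and their sequences show how little of the mRNA was altered. Each is printed as it lies in the GENCODE mRNA, build GRCm38, with the microexon in capitals and 12 bases of the neighbouring exons in lower case. The first 12 are the largest rises, followed by Ergic3 and Mast2, which the study had assayed in N2A cells, and by Gnas, the fall with the most reads.
Clasp2, 24 nt, chr9:113858581-113858604, plus strand: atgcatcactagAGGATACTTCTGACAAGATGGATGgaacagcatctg
Rab3gap1, 21 nt, chr1:127941594-127941614, plus strand: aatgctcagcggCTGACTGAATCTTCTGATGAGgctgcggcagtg
Fbxo25, 27 nt, chr8:13938922-13938948, plus strand: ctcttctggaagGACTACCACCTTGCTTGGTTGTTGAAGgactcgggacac
Pacsin2, 6 nt, chr15:83383623-83383628, minus strand: ccacagtttgagGATGAAgagtggtctgca
Vti1a, 21 nt, chr19:55387189-55387209, plus strand: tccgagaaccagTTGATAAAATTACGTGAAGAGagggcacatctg
Atp2c1, 12 nt, chr9:105493543-105493554, minus strand: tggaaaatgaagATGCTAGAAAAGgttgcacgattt
Snx14, 27 nt, chr9:88400723-88400749, minus strand: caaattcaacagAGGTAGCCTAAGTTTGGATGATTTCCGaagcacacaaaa
Slc38a10, 24 nt, chr11:120108467-120108490, minus strand: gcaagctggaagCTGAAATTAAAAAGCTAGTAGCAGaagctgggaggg
Mon2, 3 nt, chr10:123023086-123023088, minus strand: catctacttgagAAGgtctgccagcat
Lphn1, 15 nt, chr8:83926262-83926276, plus strand: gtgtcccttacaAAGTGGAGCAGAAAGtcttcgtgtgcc
Ppfia3, 27 nt, chr7:45343553-45343579, minus strand: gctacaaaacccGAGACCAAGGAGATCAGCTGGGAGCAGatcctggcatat
Lphn2, 12 nt, chr3:148860427-148860438, minus strand: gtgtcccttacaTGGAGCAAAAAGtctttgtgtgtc
Ergic3, 15 nt, chr2:156015377-156015391, plus strand: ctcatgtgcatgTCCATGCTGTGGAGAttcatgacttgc
Mast2, 21 nt, chr4:116333413-116333433, minus strand: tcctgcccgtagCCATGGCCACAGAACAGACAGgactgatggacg
Gnas, 24 nt, chr2:174328108-174328131, plus strand: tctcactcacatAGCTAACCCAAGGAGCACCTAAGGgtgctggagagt
Of 19 microexons looked for in the annotation, all 19 were found, and 18 of them, all but Gnas, lie within the coding sequence of at least 1 annotated transcript. The Clasp2 microexon was matched by its length and only 1 of its flanking introns, and the others by both introns. Clasp2 has another microexon of 24 nt whose inclusion also rose. Lphn1 and Lphn2, which encode the related adhesion receptors latrophilin 1 and 2, carry their microexons behind the same 12 bases.

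Microexons that were called changed mostly rose after GNF-5837, while the median difference over all 589 tested was 0.157 PSI. Of 589 microexons of up to 27 nt with sufficient coverage, 73 rose by at least 10 percent spliced in (PSI) with a posterior probability above 0.95, which is 12.4% (95% Wilson interval 9.97 to 15.3%, counting error only), and 4 fell, which is 0.679%. The rises had a median of 15.3 PSI, ran from 10.4 to 32.5 PSI, and lay in 70 genes. In all 73 the GNF-5837 library was outside the range of the DMSO libraries. Among cassette exons longer than 27 nt, 469 of 55340 rose (0.847%) and 272 fell (0.492%). Over the 544 microexons measured in all 4 libraries, mean PSI was 48.7 in DMSO A, 48.6 in B, 48.6 in C and 51.2 in the GNF-5837 library, which stood above all 3 controls.

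A stricter test that takes the spread between the DMSO libraries into account, limma on the logit of PSI with Benjamini-Hochberg adjustment, called 38 of 544 microexons higher (6.99%) and none lower (0.0%). Without adjustment, 2 microexons were lower at p under 0.05 and 10 PSI. By the same test 112 of 52928 cassette exons were higher (0.212%) and 48 lower (0.0907%). When reads were divided by the mean chi-square between DMSO libraries, a setting chosen after the data were seen, 54 of the 73 microexons were still called higher.

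The largest rise was in Clasp2, which encodes a protein that stabilises microtubule plus ends. Its 24 nt microexon was at 43.4, 27.9 and 40.4 PSI in DMSO A, B and C and at 69.7 PSI with GNF-5837, a difference of 32.5 PSI (limma adjusted p = 0.0233). Fbxo25 codes for an F-box subunit of a ubiquitin ligase, and its 27 nt microexon went from 21.6, 18.1 and 27.1 PSI to 50.1 PSI (limma adjusted p = 0.00529). The GNF-5837 value exceeded the highest DMSO value in both genes by more than the 3 DMSO libraries differed among themselves. In Rab3gap1, a subunit of the regulator of the vesicle protein RAB3, the 21 nt microexon was at 16.2 and 17.8 PSI in DMSO A and B and at 45.1 PSI with GNF-5837, DMSO C did not pass the filters, and the limma test was not run.

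Several others of the 12 lie in genes of membrane traffic. Pacsin2, which bends membranes during endocytosis, includes a microexon of 6 nt that was read deeply, with 914 to 2081 reads per library. Its PSI was 37.5, 34.6 and 40.5 in DMSO and 63.0 with GNF-5837 (limma adjusted p = 0.00364). Mon2, a scaffold of the Golgi and endosomes, has a microexon of 3 nt, which adds a single codon length, and PSI went from 30.5, 32.8 and 28.7 to 54.2 (limma adjusted p = 0.00364). Both genes had tight controls, and the treated library was well above them. Vti1a, a SNARE protein of the Golgi, went from 33.2, 28.4 and 34.4 PSI to 57.3 PSI for its 21 nt microexon (limma adjusted p = 0.0125). Snx14, a sorting nexin, went from 51.6, 46.9 and 42.4 PSI to 71.4 PSI (limma adjusted p = 0.0135). These microexons were partly included before treatment and were not complete after it.

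The 12 largest rises also included transporters and synaptic or adhesion proteins. The 24 nt microexon of Slc38a10, a member of the amino acid transporter family SLC38, was at 37.1, 40.6 and 47.0 PSI in DMSO and 65.4 PSI with GNF-5837 (limma adjusted p = 0.0234). Lphn1 was at 52.8, 54.3 and 41.4 PSI in DMSO and 72.9 PSI with GNF-5837 (limma adjusted p = 0.0195). Lphn2 was at 16.95, 15.1 and 18.5 PSI in DMSO and 39.0 PSI with GNF-5837 (limma adjusted p = 0.00556). The differences were 23.4 PSI in Lphn1 and 22.1 PSI in Lphn2, from different starting levels. Ppfia3, a liprin of the presynaptic zone, was at 38.3, 30.1 and 40.9 PSI in DMSO and 59.7 PSI with GNF-5837, and missed the limma threshold (adjusted p = 0.0683). Atp2c1, the Golgi calcium pump, was at 34.2, 20.7 and 14.4 PSI in DMSO and 48.4 PSI with GNF-5837, on 33 to 84 reads per library. Its DMSO libraries were the most scattered of the 12, and the change missed the limma threshold (adjusted p = 0.293).

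The 4 microexons that fell were less secure. Gnas, the stimulatory G protein alpha locus, was at 55.3, 51.4 and 52.7 PSI in DMSO and 41.0 PSI with GNF-5837, below every DMSO library, with a limma adjusted p of 0.0512. Cdk5rap2, a centrosomal protein, was at 32.3, 25.98 and 28.1 PSI in DMSO and 17.2 PSI with GNF-5837, and its call was lost without DMSO A, where the difference was -9.79 PSI. Arhgef40, a guanine nucleotide exchange factor, was at 30.7, 8.77 and 30.4 PSI in DMSO and 8.20 PSI with GNF-5837, so DMSO B was as low as the treated library, and the call was lost without DMSO A (-11.37 PSI) or DMSO C (-11.55 PSI). The remaining one, named here only because the count is small, was the 18 nt microexon of the tyrosine kinase Src, at 14.4 and 26.5 PSI in DMSO A and B and 6.92 PSI with GNF-5837, on as few as 15 reads. Without DMSO A only 1 microexon was called lower, and without DMSO B there were 7.

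**Figure D1:**
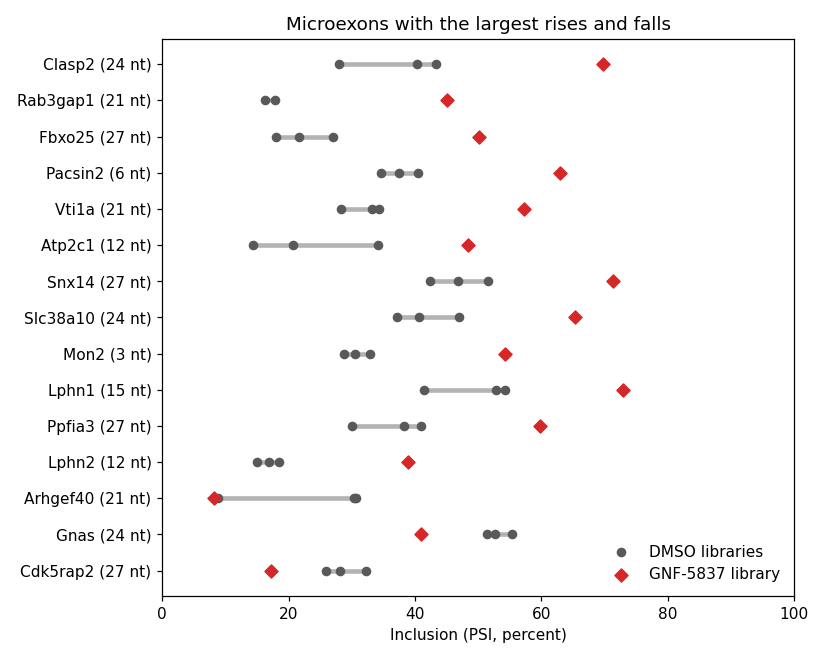
Inclusion in percent spliced in (PSI, horizontal axis) of the 12 microexons with the largest rises and 3 with falls, 1 row each, with grey circles for the DMSO libraries, a grey bar over their range and a red diamond for the GNF-5837 library. In the 12 rises the treated library lies to the right of every DMSO library that passed, which the rule for naming them required. Clasp2, for example, is at 69.7 against 27.9 to 43.4 PSI, and Rab3gap1 has no point for DMSO C. In Arhgef40 the treated library lies beside DMSO B.

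The share of microexons that rose differed with their inclusion before treatment. Of microexons that averaged 10 to 50 PSI over the controls, 45 of 84 rose, and of those at 50 to 90, 22 of 74 rose. Below 10 PSI 6 of 222 rose, and above 90 PSI 0 of 209, where a rise of 10 PSI is not possible. Restricted to a mean of 10 to 90 PSI in DMSO, 67 of 158 microexons rose (42.4%) and 4 fell, against 444 of 2647 cassette exons that rose (16.8%) and 132 that fell. In that range the median difference was 8.28 PSI over all 158 microexons, of which 126 lay above their DMSO mean, and 2.51 PSI over the 2647 cassette exons.

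Microexons of every length class took part. In the same PSI range, 9 of 26 microexons of 3 to 9 nt rose, 22 of 41 of 10 to 15 nt, 12 of 33 of 16 to 21 nt and 24 of 58 of 22 to 27 nt. Among cassette exons the share that rose was 23.8% at 28 to 50 nt, 15.2% at 51 to 100 nt, 15.6% at 101 to 150 nt, 16.1% at 151 to 250 nt and 24.6% above 250 nt. The 4 microexon classes therefore stood at 34.6 to 53.7%, above all 5 classes of longer exons. Of the 73 raised microexons, 72 had a length divisible by 3, as had 444 of all 589 tested, and in the range of 10 to 90 PSI 66 of 145 such microexons rose against 1 of 13 whose length was not. These are counts of exons within 1 treated library, and no test was made of them.

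**Figure D2:**
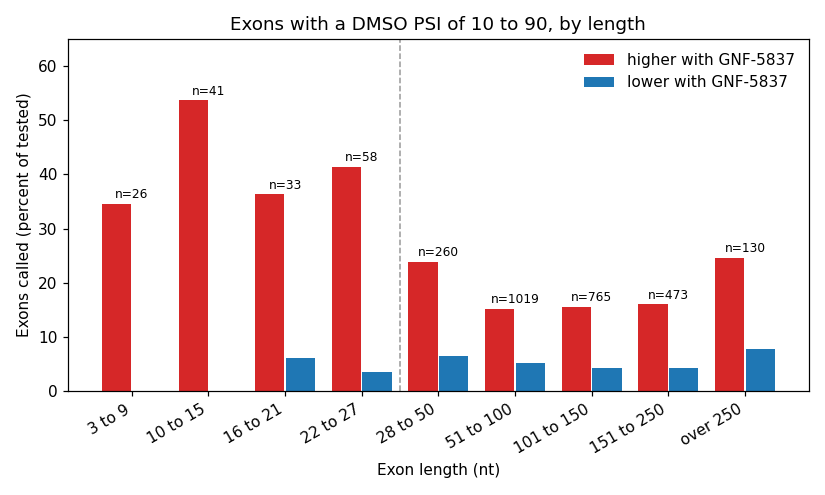
Share of exons called higher (red bars) or lower (blue bars) with GNF-5837 (vertical axis, percent of exons tested) by exon length in nt (horizontal axis), for exons at 10 to 90 PSI in DMSO, with the number tested above each pair of bars and a dashed line between microexons and longer exons. The microexon classes reach 34.6 to 53.7% higher and the longer exons 15.2 to 24.6%.

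Expression of the genes that held a raised microexon moved in both directions. Of 69 such genes found in the expression table, 67 were above 5 RPKM, 7 were more than 2-fold higher (10.4%) and 2 more than 2-fold lower (2.99%), beside 3.57% and 5.7% of all genes above 5 RPKM, and the median log2 RPKM ratio was 0.00, where all those genes had a median of -0.19.

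Among the exons that the study had named or assayed, Mast2 and Ergic3 rose. For predicted activators the study had assayed Mast2, Ergic3, Zdhhc20 and Mgrn1 by RT-PCR, and Trappc9 and Asph only for predicted inhibitors. Compounds were chosen for RNA-seq partly by the mean change of Srrm4-dependent exons, which include those of Mast2, Ergic3 and Zdhhc20. Rises in these exons are therefore not independent of that choice. The 21 nt microexon of Mast2, a microtubule-associated kinase, was at 47.1, 48.9 and 33.3 PSI in DMSO and 64.5 PSI with GNF-5837 (limma adjusted p = 0.201). The 15 nt microexon of Ergic3, a protein of the transport step between endoplasmic reticulum and Golgi, was at 33.9, 39.8 and 42.0 PSI in DMSO and 56.4 PSI with GNF-5837 (limma adjusted p = 0.0300). The 21 nt microexon of Mef2d, the transcription factor whose exon formed the screening reporter, was at 89.5, 88.7 and 88.7 PSI in DMSO and 95.5 PSI with GNF-5837, a difference of 6.49 PSI that did not reach 10. Trappc9, with a microexon of 27 nt, was at 29.7, 31.6 and 33.2 PSI in DMSO and 25.1 PSI with GNF-5837 and was not called.

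Of the longer exons, the 36 nt exon of Zdhhc20, a palmitoyltransferase, was called higher, at 28.96, 41.4 and 31.3 PSI in DMSO and 47.0 PSI with GNF-5837 (limma adjusted p = 0.527). The exons of 48 and 45 nt of Asph, an aspartate hydroxylase, were at 39.4 PSI against 20.9 to 32.3 and at 72.5 PSI against 56.5 to 70.8, and each lost its call when DMSO B was left out, with differences of 10.42 and 8.33 PSI, the second also without DMSO C (8.81 PSI). The exons of 66 and 45 nt of Mgrn1, a ubiquitin ligase, were at 12.04 PSI against 7.80 to 12.02 and at 16.7 PSI against 16.8 to 25.6, and neither was called.

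Some of the largest changes of longer exons were switches between neighbouring exons of equal length. Only pairs whose exons were both called, in opposite directions, were picked out, and this was done after their values were seen. Equal-length pairs without such a switch were not counted. The clearest switches were in Snap25, which encodes a SNARE protein of synaptic vesicle fusion, and in Tpm1, which encodes an actin-binding tropomyosin. The GRCm38 sequences of the exons are shown because each pair codes for the same stretch of the protein in 2 versions, with the bases that differ between the exons of a pair in capitals.
Snap25 upstream exon, chr2:136769743-136769860, plus strand: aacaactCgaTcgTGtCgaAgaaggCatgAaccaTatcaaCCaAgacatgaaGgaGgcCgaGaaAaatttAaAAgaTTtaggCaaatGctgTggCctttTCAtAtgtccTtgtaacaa
Snap25 downstream exon, chr2:136770057-136770174, plus strand: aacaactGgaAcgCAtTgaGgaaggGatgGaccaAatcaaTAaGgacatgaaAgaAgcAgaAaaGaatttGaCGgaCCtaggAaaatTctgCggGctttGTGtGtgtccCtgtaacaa
Tpm1 upstream exon, chr9:67032466-67032541, minus strand: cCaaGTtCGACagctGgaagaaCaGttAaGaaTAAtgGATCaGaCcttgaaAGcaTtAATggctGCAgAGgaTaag
Tpm1 downstream exon, chr9:67031951-67032026, minus strand: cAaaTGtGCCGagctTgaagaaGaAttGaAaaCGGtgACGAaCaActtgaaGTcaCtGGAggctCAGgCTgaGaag
The Snap25 exons of 118 nt differ at 31 positions (73.7% the same) and the Tpm1 exons of 76 nt at 33 positions (56.6% the same).

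In Snap25 the upstream exon fell from 81.6, 77.7 and 82.8 PSI in DMSO to 58.8 PSI (limma adjusted p = 0.00235), while the downstream exon rose from 10.8, 14.5 and 10.2 PSI to 31.01 PSI (limma adjusted p = 0.00278). The upstream exon of Tpm1 fell from 48.4, 44.7 and 49.4 PSI to 24.9 PSI (limma adjusted p = 0.00322), and the downstream exon rose from 48.2, 54.4 and 48.7 PSI to 74.2 PSI (limma adjusted p = 0.00505). In both genes the treated library was clear of all 3 DMSO libraries for both exons. In Atp8a1, a phospholipid flippase, the upstream exon of 74 nt fell from 57.2, 50.1 and 77.2 PSI to 24.2 PSI (limma adjusted p = 0.163) and the downstream exon rose from 32.4, 52.2 and 40.9 PSI to 84.8 PSI (limma adjusted p = 0.0348). Dnm2, which encodes the endocytic GTPase dynamin 2, moved the other way, with the upstream exon of 139 nt going from 67.9, 64.3 and 68.4 PSI to 78.0 PSI and the downstream one from 41.4, 40.7 and 36.7 PSI to 28.8 PSI (limma adjusted p = 0.151 and 0.138). Galnt7 and P4ha1 held further pairs, with differences of -15.4 and 17.4 PSI in Galnt7 and 14.8 and -13.8 PSI in P4ha1 and limma adjusted p of 0.0861 to 0.678. The exons of a pair compete, so the 2 exons of a gene are not separate evidence.

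**Figure D3:**
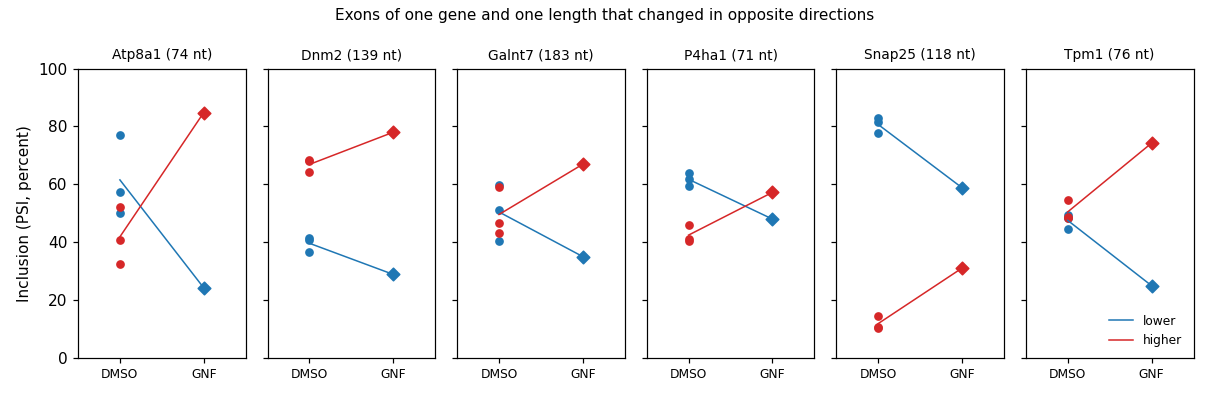
Inclusion in PSI (vertical axis) of both exons of 6 same-length pairs, 1 panel per gene, with circles for the 3 DMSO libraries, diamonds for the GNF-5837 library and a line from the DMSO mean to the treated value, red for the exon that was higher and blue for the one that was lower. Pairs were chosen because their exons were called in opposite directions, as in Tpm1, where the treated library is at 24.9 and 74.2 PSI.

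Single cassette exons, out of 55340 tested, showed larger differences than any of the 589 microexons. The larger set has more room for extremes. At 10 to 90 PSI in DMSO the median difference was 8.28 PSI in microexons and 2.51 PSI in cassette exons. In Sh3pxd2a, a scaffold of podosomes, a 45 nt exon went from 48.1, 43.9 and 45.2 PSI to 90.3 PSI (limma adjusted p = 0.0242). Ubr4, a ubiquitin ligase, included a 33 nt exon at 25.7, 23.4 and 22.8 PSI in DMSO and 62.2 PSI with GNF-5837 (limma adjusted p = 0.00121). Rpain, an importer of replication protein A, went from 59.8, 59.0 and 59.7 PSI to 96.2 PSI (limma adjusted p = 0.0412). All 3 had closely grouped controls. Exons of Prdm15, Fnip2, Trim46 and Ryr2 rose by 35.6 to 45.8 PSI and had no limma call, the first and last because DMSO C did not pass the filters. The controls of Ryr2 were scattered, with DMSO A and B at 61.7 and 25 PSI beside 78.95 PSI with GNF-5837.

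Falls of similar size were found in Nthl1, a DNA glycosylase, where an exon of 171 nt was at 100 PSI in all 3 DMSO libraries and 63.6 PSI with GNF-5837 (limma adjusted p = 0.00876). Nav3, a neuron navigator, went from 97.1, 95.7 and 96.2 PSI to 64.5 PSI for an exon of 42 nt (limma adjusted p = 0.0199). The 49 nt exon of 2810442I21Rik went from 72.7, 80.8 and 79.7 PSI to 45.1 PSI (limma adjusted p = 0.0383). Lrp8, a receptor for reelin, went from 77.5, 72.6 and 68.0 PSI to 44.6 PSI for an exon of 39 nt and missed the limma threshold (adjusted p = 0.0876). Exons of Serp2 (30.4 PSI against 51.8 to 87.7 in DMSO), Ankrd45 (30.8 against 48.3 to 76.2) and Plcb3 (33.3 against 50 and 76.6 in the DMSO libraries that passed) were called lower on scattered controls.

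Intron retention changed at few of the introns measured. Of 85402 introns 394 were retained more (0.461%) and 169 less (0.198%), and limma called 225 of 78842 higher (0.285%) and 49 lower (0.0621%). At the median DMSO retention of 0.133% a fall of 10 PSI is not possible. The counts of rises and falls therefore cannot be compared. The limma fit gave all introns 1 common variance, so the spread of a single intron between the DMSO libraries did not enter its p, and the intron of Trim11, at 33.6, 11.7 and 86.8% in DMSO and 9.75% with GNF-5837, was among those called. With reads divided by the chi-square between DMSO libraries 58 introns were called higher and 21 lower. The raised introns were short, with a median of 620.5 nt, and so were the lowered ones, at 362 nt, against 1280 nt over all introns tested. Their median retention in DMSO also differed, at 6.18% and 25.6% against 0.133% over all introns tested. Lengths were not compared at matched retention. Sars, the seryl-tRNA synthetase gene, retained a 471 nt intron at 11.1, 23.1 and 32.4% in DMSO and 57.3% with GNF-5837. Taf1d, which encodes a subunit of the RNA polymerase I factor SL1, retained a 251 nt intron at 47.6, 34.4 and 35.2% in DMSO and 7.89% with GNF-5837. Ogfod2, Unc50, Trp53i13 and 9930104L06Rik held the other large rises (34.3 to 54.2 PSI) and Bsg, Trim11, Trpm2 and Map4k2 the other large falls (differences of -27.98 to -43.51 PSI), several of them with a DMSO library missing or far from the rest. Of the 281 expressed genes with a more retained intron, 3 were more than 2-fold higher (1.07%) and 28 more than 2-fold lower (9.96%) in RPKM, and of 112 with a less retained intron, 7 were higher (6.25%) and 1 lower (0.893%), beside 3.57% and 5.7% of all genes above 5 RPKM.

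Alternative splice sites moved at 535 of 29093 alternative 3′ sites (1.84%) and 468 of 21340 alternative 5′ sites (2.19%). The sites of an event compete, so a rise at one is a fall at another, and limma called 6 and 11 of them. The largest shift was in Rg9mtd3, where the site giving the shorter exon, 3 nt from the other, was used at 0 and 2.30 PSI in DMSO A and B and at 51.5 PSI with GNF-5837, on 23 to 46 reads per library. Fance (39.6 PSI) and Cox18 (30.4 PSI) followed for 3′ sites, and Recql (39.5 PSI) and Fam46a (38.9 PSI) were among the largest for 5′ sites, all on 20 to 70 reads per library.

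Genes changed in both directions, and which direction held more of them depended on the measure. The expression table gives 1 RPKM value per condition, with the DMSO libraries merged by the authors, so it carries no spread. Of 9873 genes above 5 RPKM in either condition, 352 were more than 2-fold higher (3.57%) and 563 more than 2-fold lower (5.7%). The median log2 ratio of these genes was -0.19, and after centring on it 536 genes were higher (5.43%) and 323 lower (3.27%), so that the share of higher genes among those that passed went from 38.5% to 62.4%. Reads over exon junctions, summed per gene and scaled to 1000000 per library (junction CPM), gave a value for each library. By limma with Benjamini-Hochberg adjustment and a 2-fold change, 414 of 8438 genes were higher (4.91%) and 218 lower (2.58%). The adjusted p alone was under 0.05 for 5270 of the 8438 genes. The DMSO libraries lay close together in these counts and the single treated library is taken to vary as they do, so the fold carries the call. Of 423 genes that were lower by RPKM and had junction reads, 415 were below every DMSO library, and of 203 that were higher, 200 were above every one. In bulk RNA, fewer cells with a transcript and less of it per cell cannot be told apart.

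The TRK receptors described here were unequally expressed. Ntrk2, encoding TRKB, was at 0.03 and 0.05 RPKM and had 0 junction reads in all 4 libraries. Ntrk3, encoding TRKC, was at 7.92 and 16.5 RPKM, a log2 ratio of 1.01 that became 0.97 with a pseudocount of 1. Its junction CPM was 14.3, 14.3 and 15.2 in DMSO and 36.2 with GNF-5837, above every control (limma adjusted p = 9.19e-08). Of the ligands, Ntf3 was listed at 0, and Bdnf was at 0.03 RPKM or less. TRKC transcripts were thus present in these cells, and those of TRKB and of both ligands were at or near 0.

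Ngfr, the p75 neurotrophin receptor, fell most of the TRK list, from 46.0 to 3.29 RPKM, a log2 ratio of -3.62. Its junction CPM was 104, 101 and 97.3 in DMSO and 10.7 with GNF-5837 (limma adjusted p = 2.76e-15). Gab2, an adaptor that links receptors to PI3K, rose from 8.38 to 21.7 RPKM, with junction CPM of 29.9, 31.2 and 28.7 in DMSO and 103 with GNF-5837. Of 32 receptors, ligands and adaptors, 22 were above 5 RPKM, with a median log2 ratio of -0.11. Of these, 2 were higher (9.09%) and 1 lower (4.55%), beside 3.57% and 5.7% of all genes above 5 RPKM. The adaptors Shc1 (41.7 and 39.9 RPKM), Frs2 (19.6 and 18.7 RPKM) and Grb2 (65.3 and 52.8 RPKM) were within 2-fold.

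The ERK feedback genes held the 2 largest falls by RPKM under the rule used here for naming genes. Of 20 feedback and target genes above 5 RPKM, 13 were more than 2-fold lower (65%, beside 5.7% of all genes) and 0 higher. These counts held before and after centring, and the median log2 ratio was -2.00. By junction reads 10 of the 15 tested were lower. Etv5 and Etv4, ETS transcription factors induced by ERK, fell from 35 to 0.27 and from 65.98 to 1.04 RPKM, log2 ratios of -5.53 and -5.43. Etv4 had 164, 150 and 149 junction CPM in DMSO and 2.77 with GNF-5837 (limma adjusted p = 1.68e-18), so little transcript was left. Dusp6, the ERK phosphatase, fell from 22.01 to 0.44 RPKM, and Dusp4, a nuclear MAPK phosphatase, from 60.3 to 2.69 RPKM. Spry4 and Spry2, inhibitors of receptor signalling to RAS, fell from 6.60 to 0.12 and from 12.9 to 2.96 RPKM. Spred1 and Spred2, relatives with the same role, fell from 33.3 to 7.65 and from 30.5 to 5.36 RPKM. Ccnd1, encoding cyclin D1, fell from 93.5 to 21 RPKM, with 181, 181 and 159 junction CPM in DMSO and 49.4 with GNF-5837. Etv1, Phlda1, Rasa3 and Dusp5 made up the rest of the 13. Myc was at 95.6 and 85.6 RPKM, and its junction CPM (55.0 to 56.5 in DMSO, 57.5 with GNF-5837) gave a limma adjusted p of 0.687.

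Of 12 immediate early genes above 5 RPKM, 3 were lower (25%) and 1 higher (8.33%), beside 5.7% and 3.57% of all genes. Their median log2 ratio was -0.03, and after centring 3 were lower and 2 higher. Egr1, a zinc finger factor of the first response to ERK, fell from 16.8 to 1.23 RPKM, Ier5 from 5.40 to 1.26 RPKM and Ier2 from 42.6 to 18.1 RPKM. Jun rose from 15.9 to 33.1 RPKM. These 4 genes had no junction reads to test.

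**Figure D4:**
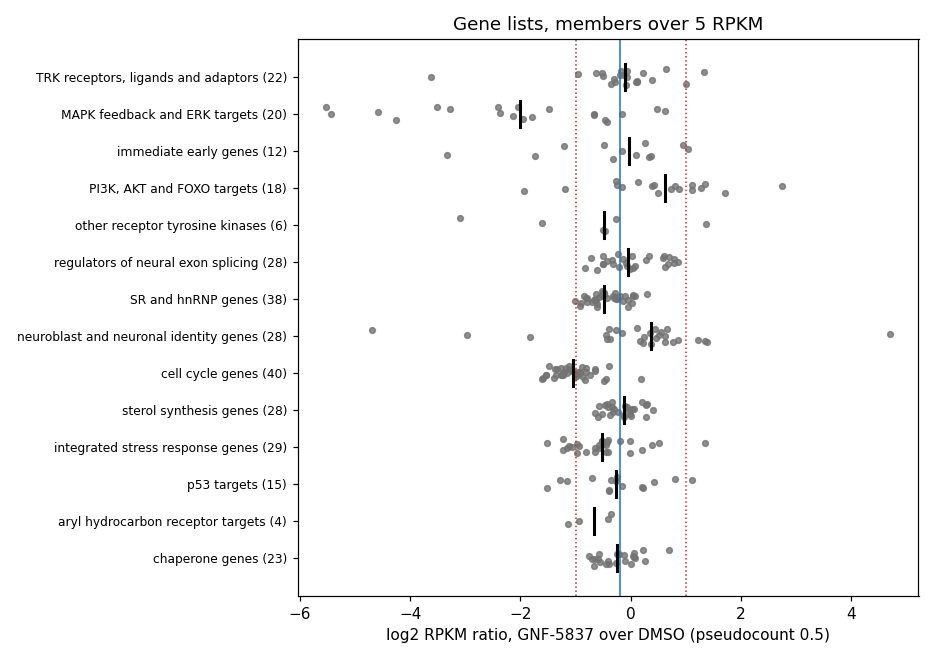
Log2 RPKM ratio of GNF-5837 over DMSO (horizontal axis, pseudocount 0.5) for the genes of each list above 5 RPKM, 1 point per gene, with the number of genes in brackets, a black tick at the list's median, dotted red lines at a 2-fold change and a blue line at the median of all genes (-0.19). The ERK feedback and target genes spread down to -5.53 around a median of -2.00, and the cell cycle genes lie around -1.05.

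Genes of the PI3K, AKT and FOXO list leaned upwards. By RPKM 33.3% of those above 5 RPKM were higher and 11.1% lower, beside 3.57% and 5.7% of all genes. Of 18 above 5 RPKM, 6 were higher and 2 lower, with a median log2 ratio of 0.62, and by junction reads 7 of 13 were higher and 0 lower. Pik3ip1, an inhibitor of PI3K, rose from 2.45 to 19.4 RPKM. Its junction CPM was 3.54, 3.77 and 2.86 in DMSO and 38.3 with GNF-5837 (limma adjusted p = 1.59e-10). Foxo3, a transcription factor that AKT holds out of the nucleus, rose from 11.3 to 38.4 RPKM, and Ccng2, encoding cyclin G2, from 4.45 to 12.1 RPKM. Txnip, Sesn1 and Sesn3 rose by log2 ratios of 1.27, 1.12 and 1.11. Irs2, the insulin receptor substrate, fell from 33.2 to 8.31 RPKM and Trib2 from 30.7 to 13.1 RPKM.

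Among other receptor tyrosine kinases only 6 of 42 were above 5 RPKM. Of these, 1 was higher (16.7%) and 2 lower (33.3%), beside 3.57% and 5.7% of all genes. Ret, the GDNF family receptor kinase, was the most abundant transcript of those that changed and fell from 132 to 15.04 RPKM, a log2 ratio of -3.09. It had 877, 904 and 863 junction CPM in DMSO and 118 with GNF-5837 (limma adjusted p = 1.91e-17). Tyro3 fell from 10.7 to 3.17 RPKM and Ddr1, a collagen receptor, rose from 10.9 to 28.9 RPKM.

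The splicing factors of microexons rose by less than 2-fold. Srrm4 was at 10.4 RPKM in DMSO and 16.4 with GNF-5837, a log2 ratio of 0.63. Its junction CPM was 38.7, 36.5 and 36.8 in DMSO and 73.3 with GNF-5837, a log2 difference of 0.96 (SE 0.09, limma adjusted p = 8.59e-08). Srrm3 was at 18.5 and 32.1 RPKM, a log2 ratio of 0.78, with 23.7, 18.05 and 17.4 junction CPM in DMSO and 33.9 with GNF-5837 (limma adjusted p = 1.74e-04). For both genes the treated library was above every DMSO library. Rbm38, an RNA-binding protein of mRNA stability and splicing, was at 40.6 and 22.5 RPKM, and its junction CPM (34.6, 34.008 and 29.3 in DMSO, 26.2 with GNF-5837) were below every control by a small margin (limma adjusted p = 0.0278).

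Of 28 regulators of neural exon splicing above 5 RPKM, 0 were more than 2-fold higher or lower, beside 3.57% and 5.7% of all genes. Their median log2 ratio was -0.05, and after centring 1 was higher. By junction reads Nova2, Celf5 and Celf6 were called higher out of 28 tested. Nova2 had 6.29, 5.56 and 5.34 junction CPM in DMSO and 15.1 with GNF-5837. Ptbp1, a repressor of neural exons, was at 476 and 338 RPKM (log2 ratio -0.49), and Ptbp2, its neural relative, at 89.0 and 136 RPKM (log2 ratio 0.61). Of 38 SR and hnRNP genes above 5 RPKM only Srsf9 was lower, which is 2.63% beside 5.7% of all genes. Its log2 ratio was -1.01, or -0.82 after centring, and the median of the list was -0.48.

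The largest rise of any gene by RPKM under the rule used here was in Rgs4, which shortens G protein signalling in neurons, from 3.01 to 91.5 RPKM, a log2 ratio of 4.71. Its junction CPM was 4.99, 5.65 and 5.00 in DMSO and 209 with GNF-5837 (limma adjusted p = 2.76e-15). Stmn4, a neuronal stathmin that binds tubulin, rose from 12.2 to 65.6 RPKM, and Syt1, the calcium sensor of vesicle release, from 40.2 to 106 RPKM. The transcription factors Gata2 and Gata3 rose from 47.9 to 122 and from 7.34 to 17.7 RPKM. In the other direction Vgf, a neurotrophin-induced secreted peptide precursor, fell from 108 to 3.70 RPKM, with 37.4, 35.5 and 29.1 junction CPM in DMSO and 2.34 with GNF-5837. Mycn, the neuroblastoma oncogene, fell from 10.9 to 0.95 RPKM, and Npy from 8 to 1.89 RPKM. Of 28 neuroblast and neuronal genes above 5 RPKM, 4 were higher (14.3%) and 3 lower (10.7%), beside 3.57% and 5.7% of all genes. Their median log2 ratio was 0.36, and by junction reads the median log2 difference was 0.73.

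Outside the lists, the rises included Adm, a vasodilator peptide (0.98 to 19.6 RPKM), Mxd4, an antagonist of MYC (2.05 to 21.3 RPKM), Rec8, a meiotic cohesin subunit (4.41 to 38.7 RPKM), and Pdlim3, a LIM protein of actin fibres (17.5 to 120 RPKM). Eml2, Pdzk1ip1, Ypel3, Klhdc8b and Dyrk1b rose by log2 ratios of 2.37 to 3.45. The falls included Loxl2, a lysyl oxidase (18.01 to 0.33 RPKM), Dkk1, an inhibitor of WNT signalling (81.9 to 6.32 RPKM), and Pcsk6, a proprotein convertase (22.9 to 1.71 RPKM). Loxl2 had 89.1, 89.4 and 85.2 junction CPM in DMSO and 1.93 with GNF-5837 (limma adjusted p = 1.91e-17).

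**Figure D5:**
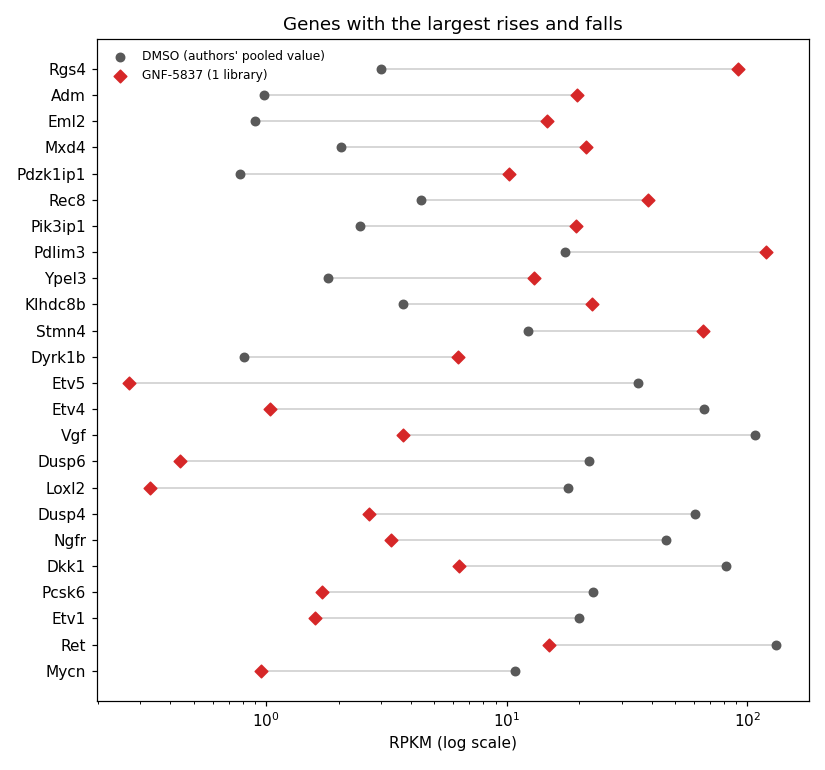
RPKM (horizontal axis, log scale) of the 12 genes with the largest rises and the 12 with the largest falls under the naming rule. A grey circle marks the authors' pooled DMSO value and a red diamond the GNF-5837 library. Rgs4 goes from 3.01 to 91.5 RPKM at the top, and Etv5 has the widest gap to the left, from 35 to 0.27 RPKM.

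Cell cycle genes were lower as a group, on both scales but to different extents. Of 40 genes, 22 were more than 2-fold lower by RPKM (55%) and 0 higher, beside 5.7% and 3.57% of all genes. Their median log2 ratio was -1.05, and after centring 15 were lower. By junction reads, 6 of 35 were lower. Cdk1, the mitotic kinase, fell from 667 to 230 RPKM, with 482, 493 and 541 junction CPM in DMSO and 205 with GNF-5837 (limma adjusted p = 2.15e-11). Cdc6, a replication licensing factor, fell from 23.2 to 7.36 RPKM, Tk1, thymidine kinase, from 69.4 to 22.4 RPKM, and Ccnb1, cyclin B1, from 340 to 117 RPKM.

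Sterol synthesis genes had 0 higher and 0 lower of 28 (median log2 ratio -0.12), and chaperone genes 0 and 0 of 23 (median -0.25). Of 29 integrated stress response genes 1 was higher, Ddit4 (28.4 to 73.1 RPKM), and 6 were lower, of which 3 remained after centring (median -0.52). Those that remained were Gdf15, Phgdh and Cth. By junction reads, which Gdf15 and Phgdh lack, 1 of 22 stress response genes was higher and 0 lower. Of 15 p53 targets 1 was higher and 3 lower, or 2 after centring (median -0.27), and by junction reads 1 of 12 was higher and 0 lower. The higher gene was Sesn1, already counted in the PI3K, AKT and FOXO list. Gdf15, already counted among the stress response genes, was 1 of the lower p53 targets. The lower shares by RPKM were 20.7% and 20% in these lists, beside 5.7% of all genes. In the last list, of 4 aryl hydrocarbon receptor targets only Nqo1 was lower, and none after centring or by junction reads (median -0.67).

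Other kinase inhibitors of the series had been given at other doses, so their values are set side by side without a comparison, and all share the same DMSO controls. Trametinib, which blocks MEK, was given at 1 µM, SCH-772984, which blocks ERK, at 2 µM, and Crenolanib, which blocks PDGF receptors and FLT3, at 2 µM, each for 24 h in 1 library. For Pacsin2 these libraries had 58.1, 43.3 and 55.6 PSI beside 63.0 PSI with GNF-5837. For Mast2 they had 65.96, 55.1 and 53.8 PSI beside 64.5 PSI. Fbxo25 had 38, 21.6 and 32.5 PSI beside 50.1 PSI. The upstream exon of Snap25 stood at 66.4, 75.8 and 78.2 PSI beside 58.8 PSI, and that of Tpm1 at 27.2, 33.9 and 19.2 PSI beside 24.9 PSI. Etv4 was at 1.41, 4.29 and 2.06 RPKM beside 1.04 RPKM, Ret at 30.6, 47.3 and 17.6 RPKM beside 15.04 RPKM, and Rgs4 at 46.1, 11.3 and 27.8 RPKM beside 91.5 RPKM. Srrm4 was at 13.3, 11.3 and 13.5 RPKM beside 16.4 RPKM.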

How the data were processed

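PolyA+ RNA of N2A cells was sequenced from TruSeq libraries. Percent spliced in (PSI) was computed per library by the authors with vast-tools on mm9 and deposited, and their quality strings hold the inclusion and exclusion read counts deposited by the authors after mappability correction. The RPKM values deposited by the authors come from Salmon on GENCODE vM21 transcripts, merged per condition (version 0.10.2 per the labels, and the methods name another). The deposited log2 fold changes, p-values and FDR of edgeR, and the pooled PSI with calls, are the authors' own comparisons and were not used. No value column lacked a sample (0 columns).

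Exons needed sufficient coverage and balance. Those that vast-tools measures as microexon events carry no balance score and passed on coverage alone, so the filters were not identical for all exons. Alternative sites needed sufficient coverage only, and introns 15 or more reads with a p for balance over 0.05. For every event at least 2 DMSO libraries had to pass. An event was called with a difference of at least 10 PSI from the DMSO mean and a posterior above 0.95 over 2000 beta draws of the reads. limma 3.58.1 (R 4.3.3) was run on logit PSI (1 read added) and on log2 of junction CPM plus 0.5 (genes of at least 5 CPM), with 2 residual degrees of freedom, taking the lone treated library to vary as the DMSO libraries do. Junction reads count a read once per event it supports. Gene ratios are log2 of RPKM plus 0.5, a scale that understates the change of low genes. Symbols of 14081 of 16635 event genes matched the expression table directly and 1151 through synonyms. Intervals are 95% Wilson intervals. Computation used Python 3.11.15, numpy 2.4.6, pandas 2.3.3 and scipy 1.17.1, and the calls were run on simulated data. The simulated exons had no spread between libraries beyond sampling, unlike the DMSO libraries, so false splicing calls from that spread were not tested.

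The comparison, gene lists and naming rules were chosen with earlier results of these data known. Named exons are the 12 largest rises and up to 8 falls of microexons, 8 and 8 of cassette exons, 5 and 5 of introns and 3 and 3 of alternative sites outside the DMSO range with at least 20 reads in each library, plus exons the study names. Named genes are the 12 largest rises and falls over 2-fold that also lay outside the DMSO range in junction reads. Genes undetected by RPKM in either condition and predicted, pseudogene, ribosomal or small RNA symbols were left out of that ranking. TRK receptors, Srrm3, Srrm4 and Rbm38, and list members that passed, were named as well. Alternatives were other thresholds, filters, pseudocounts, centring and leaving out each DMSO library. The identity and dose of GNF-5837 come from the study's supplement. mm9 sequence was not used here. Some members of the lists and markers are not reported here by name.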

Additional observations from a re-analysis of the deposited data

How the results depend on the processing

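Leaving out each DMSO library in turn gave 63 to 74 microexons higher and 1 to 7 lower, 467 to 478 cassette exons higher and 243 to 263 lower, and 415 to 444 genes higher and 209 to 226 lower by junction reads. With at least 15 PSI the counts were 37 and 1 for microexons, 200 and 110 for cassette exons, 195 and 84 for introns, and 193 and 217 for alternative 3′ and 5′ sites. With a posterior above 0.99, 204 introns were higher, 76 lower and 337 alternative 3′ sites changed, and with at least 20 reads in each library 259 and 103 introns. limma on logit PSI called 38 and 0 microexons, 112 and 48 cassette exons, 225 and 49 introns, and 6 and 11 alternative 3′ and 5′ sites. Dividing reads by the chi-square between DMSO libraries, added after seeing the data, left 2 microexons lower, 156 cassette exons lower, 58 and 21 introns, and 118 and 142 alternative 3′ and 5′ sites. Limiting microexons to 15 nt, which tests fewer exons, left 35 higher and 0 lower. Over 1 RPKM 711 genes were higher and 869 lower, without a filter 803 and 1052, and after centring 536 and 323. The higher calls for microexons outnumbered the lower ones under each of these settings. Other filters, priors, centring and a spread that included the HDAC inhibitor groups gave 343 to 617 genes higher and 218 to 274 lower by junction reads. No called value reversed. Of the named exons, introns and sites, limma ended 23 calls, and centring ended 13 gene calls. No paired analysis was possible because the treated group holds 1 library. DMSO C and the treated library had the fewest reads of the 4, which limits the events that could be measured.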
